A study of Drosophila melanogaster with 12 samples.

Results

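The shortest genes of the nuclear genome were examined in RNA immunoprecipitation sequencing (RIP-seq) of Caper from adult *Drosophila* heads. They were defined as genes with an exon length of 300 bases or less on a nuclear chromosome. Genes of the mitochondrial genome and the rDNA unit were left out, as were genes of the heterochromatic end of X that carries rDNA copies. Of the 17612 genes counted, 1056 met this definition, 964 without an intron and 92 with an intron, and 16483 nuclear genes were longer. Exon lengths ran from 31 to 300 bases with a median of 135. The set holds most annotated snoRNA, snRNA, tRNA and 5S rRNA genes together with short mRNA genes. None of the 262 microRNA positions of RefSeq matched a gene of the table, so microRNAs were not analysed here.

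Caper is an RNA-binding protein of the splicing machinery and the fly counterpart of human RBM39, and the study asked which RNAs it binds. The 12 libraries comprise 3 IPs with a rabbit polyclonal antibody to Caper (replicates 1 to 3), 3 IPs with a mouse monoclonal antibody to FLAG on magnetic beads (replicates 4 to 6) and the 6 inputs of these IPs, each the lysate taken before immunoprecipitation. All of the flies, those of the inputs included, carried *Hsp70Gal4* and *UASCaperFlag*, and were kept for 2 hours at 37°C and then overnight at 30°C to induce FLAG-tagged Caper. The heat shock promoter is not restricted to a cell type, so the tagged protein was not limited to neurons. The Caper antibody also recognises the endogenous protein, and no IP from flies without the tag was analysed here. Fly ages and the number of heads were not in the labels used here.

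Most short nuclear RNAs work as part of a stable particle. Small nucleolar RNAs (snoRNAs) guide the modification of rRNA, with box C/D snoRNAs directing 2′-O-methylation through fibrillarin and box H/ACA snoRNAs directing pseudouridylation through dyskerin, which is Nop60B in flies. Small Cajal body RNAs (scaRNAs) do the same for spliceosomal RNAs. The spliceosomal small nuclear RNAs (snRNAs) U1, U2, U4, U5 and U6 remove the major class of introns, and U11, U12 and U4atac serve the minor class. 7SL RNA is the scaffold of the signal recognition particle, and the RNA of RNase P cuts the 5′ leader from tRNA precursors. Most fly snoRNAs are released from introns of host genes after splicing.

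The libraries held 23907193 to 34264177 counts in the Caper IP and 10746027 to 12401744 in its inputs, and 20431211 to 23694613 in the FLAG IP and 9615414 to 12579559 in its inputs. Alignments of read pairs that mapped to several places were not counted. They made up 21.8 to 24.7% of the alignments of the Caper IP against 71.7 to 75.3% of those of its inputs. For FLAG they made up 34.3 to 40.9% in the IP against 72.5 to 74.3% in its inputs. A read pair can have several alignments, so these are not percentages of read pairs. Genes with identical copies elsewhere, such as 5S rRNA, most tRNA and several snRNA genes, are therefore undercounted, and counts of near-identical copies are uncertain. Photoreceptor and neuron markers of the head were high in all libraries, the 4 neuron markers summing to 3796 to 4382 CPM (counts scaled to a common library size) in the 6 IPs and to 3654 to 3932 CPM in the 6 inputs. The 5 photoreceptor markers summed to 30530 to 49290 CPM in the Caper IP against 32220 to 42040 CPM in its inputs, and to 23640 to 27980 CPM in the FLAG IP against 33220 to 35980 CPM in its inputs, without overlap for FLAG. The 4 glia markers summed to 1515 to 1781 CPM in the Caper IP against 1138 to 1353 CPM in its inputs, without overlap, and to 1186 to 1251 CPM in the FLAG IP against 1225 to 1250 CPM in its inputs. The 4 head fat body markers (Yp1, Yp2, Yp3 and to) ran from 2839 to 18910 CPM in the Caper IP against 2928 to 11080 CPM in its inputs, and from 2967 to 8173 CPM in the FLAG IP against 4087 to 8163 CPM in its inputs. The part of these markers in the results below was not tested.

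Only a minority of the short genes yielded enough counts to test. No read pair was counted in any library for 354 of the 1056 genes, 515 had counts but did not pass the filter on low counts, and 187 were tested with at least 1 antibody, 186 with Caper and 162 with FLAG. The highest count of an untested gene in any library was 52. The classes differed widely in this respect. Of 106 H/ACA guide snoRNA genes 77 were tested, of 87 other snoRNA or scaRNA genes 32, of 30 snRNA genes 18 and of 80 mRNA genes 23. By contrast, 5 of 78 C/D guide snoRNA genes, 3 of 290 tRNA genes and 2 of 100 5S rRNA genes were tested, and 95 of the 5S rRNA genes had no count in any library. A further 204 genes made other non-coding RNAs (21 tested), 47 were pseudogenes (3 tested) and 34 could not be named (3 tested).

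The short genes were also sorted by position. Inside an intron of another gene on the same strand lay 347 of the short genes, of which 125 were tested. Another 477 lay apart from any other gene (43 tested) and 160 lay opposite a gene on the other strand (19 tested). The remaining 72 shared exon bases with another gene of the same strand. A read pair over exons of 2 genes was not counted, and of these 72 genes 66 had no count at all, the highest count was 3, and none was tested. Chromosome arm 2R held 348 of the short genes, 3R 207, 2L 202, 3L 177 and X 105.

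The short genes took a much smaller part of the IP libraries than of the inputs. They received 0.1234, 0.1616 and 0.1302% of the counts in the Caper IP against 0.7548, 0.7573 and 0.7808% in its inputs, and 0.1155, 0.1007 and 0.1306% in the FLAG IP against 0.7312, 0.5782 and 0.6968% in its inputs. The highest of the 6 IPs stayed far below the lowest of the 6 inputs. Over both antibodies the share averaged 0.127% ± 0.0203 in the IPs and 0.717% ± 0.0735 in the inputs (SD, n = 6 each), a difference of -0.5895 percentage points. It was lower in the IP in 6 of 6 pairs of an IP and its input (two-sided exact sign-flip permutation test, p = 0.031, the smallest that 6 pairs allow). Within an antibody the difference was -0.6259 percentage points for Caper and -0.5531 for FLAG, each with p = 0.1 in a two-sided exact permutation test of 3 against 3, the smallest p of that design.

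**Figure D1:**
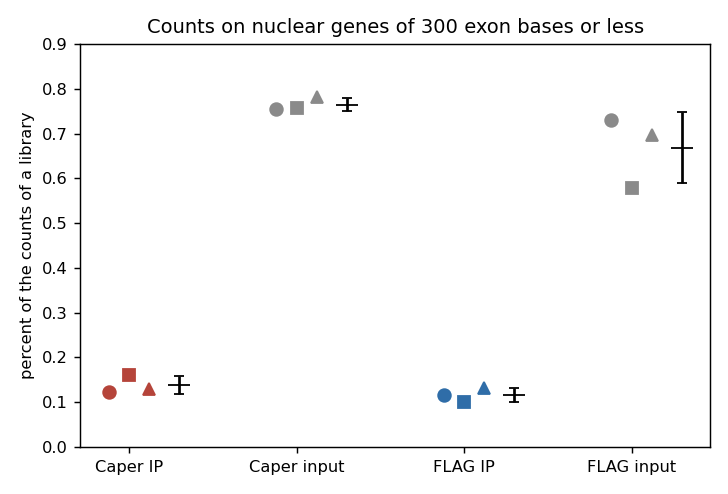
Percent of the counts of each library that fell on nuclear genes of 300 exon bases or less, with circles, squares and triangles for the 3 replicates of a group and bars for the mean and SD (n = 3). The 6 IPs sit between 0.1007 and 0.1616%, all below the 6 inputs at 0.5782 to 0.7808%.

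The same shares were taken class by class. Other non-coding RNAs, which include 7SL and RNase P RNA, took 0.0367% of the Caper IP against 0.363% of its inputs, and 0.0284% of the FLAG IP against 0.323% of its inputs. H/ACA guide snoRNAs took 0.0473% against 0.173% for Caper and 0.0396% against 0.147% for FLAG, IP before input. The snRNAs took 0.0224% against 0.0890% and 0.0202% against 0.0714% in the same order. Short mRNAs took 0.0195% of the Caper IP against 0.0672% of its inputs and 0.0120% of the FLAG IP against 0.0678% of its inputs. For the C/D guide snoRNAs the means of the IPs were not below those of the inputs, with 0.00215% of the Caper IP against 0.00193% of its inputs and 0.00249% of the FLAG IP against 0.00196% of its inputs. A single gene of this class, snoRNA:Me28S-A1322, held most of the class counts in each IP and a smaller part of them in each input. The C/D means therefore do not describe the class as a whole. These class shares are means of 3 libraries and were not tested. The 5 most abundant short RNAs (lncRNA:CR40469, RNaseP:RNA, snRNA:U2:34ABa, snoRNA:Psi28S-291 and snoRNA:Psi18S-1820) held 35.04 to 38.7% of the short gene counts in the IPs and 52.9 to 55.9% in the inputs.

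Gene by gene, far more short RNAs were lower in the IPs than were higher. In the Caper IP 102 of the 186 tested short genes were lower and 1 was higher than in the inputs at an adjusted p below 0.05 (edgeR quasi-likelihood test with Benjamini-Hochberg adjustment over all genes tested). Among all 10778 genes tested with Caper, 7.53% were lower and 6.33% higher. In the FLAG IP 111 of 162 short genes were lower and 4 were higher, where 20.8% of all 10476 genes tested were lower and 19.5% higher. The share called lower was thus 54.8% of tested short genes against 6.49% of tested longer nuclear genes with Caper, and 68.5% against 19.9% with FLAG. The median log2 fold change was -1.67 over the short genes and 0.03 over all genes in the Caper IP, and -1.55 and 0.00 in the FLAG IP. Both antibodies gave the lower call for 93 of the 161 short genes tested with both, and no gene was called in opposite directions. In 133 of the 187 short genes tested with at least 1 antibody the IP was below its input in all 6 pairs. In 2 of them, snoRNA:Me28S-A1322 and sisRNA:3, it was so in none. The same was not counted over all genes.

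These counts describe the genes that passed the filter, which can be passed through the inputs alone. Where at least 10 counts were required in every library, 90 of 119 short genes were lower with Caper and 88 of 106 with FLAG. Without a filter, 94 of 638 short genes were lower with Caper and 109 of 627 with FLAG, and the median log2 fold change of the short genes was -0.61 and -0.48. The number of short genes with at least 1 count was higher in the deeper IP libraries, at 432 to 472 with Caper and 429 to 479 with FLAG, against 359 to 399 and 358 to 389 in their inputs. The count of lower genes in the Caper IP depended on single libraries, and was 45 without input 2, 61 without input 1, 65 without input 3 and 67 without IP 3.

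**Figure D2:**
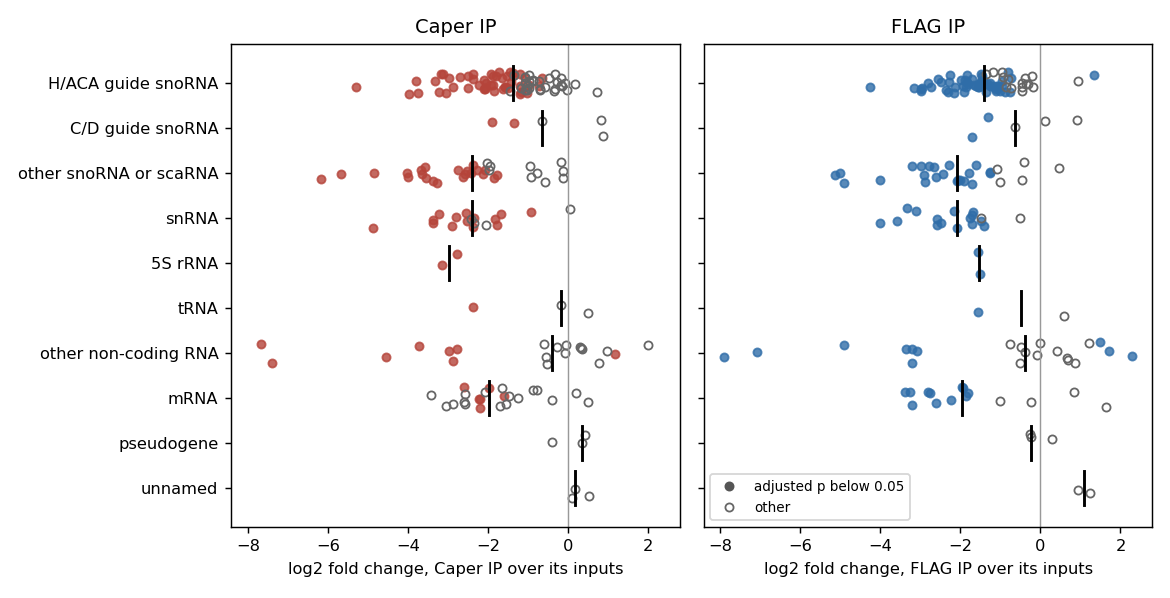
Log2 fold change of each tested short gene in the Caper IP (left) and the FLAG IP (right) over the inputs, by class, with filled points for an adjusted p below 0.05 and a bar at the median of the class. The medians of the H/ACA guide snoRNAs (-1.38 and -1.40), the other snoRNAs and scaRNAs (-2.40 and -2.09) and the snRNAs (-2.40 and -2.08) lie well below 0, and the points above 0 are few.

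7SL RNA was the most depleted of all short RNAs with both antibodies. The gene 7SLRNA:CR32864 (FBgn0000003, dmel_r6.36, arm 3R from 6822500 to 6822798, plus strand) had 1.18, 0.776 and 0.725 CPM in the Caper IP against 183.9, 193.0 and 188.7 CPM in its inputs. In the FLAG IP it had 0.420, 0.887 and 0.604 CPM against 164.9, 146.8 and 158.0 CPM in the inputs. The IP libraries held only 9 to 43 read pairs of this RNA each. Its log2 fold change was -7.68 (SE 0.19, adjusted p = 9.21e-06) with Caper and -7.91 (SE 0.20, adjusted p = 2.89e-06) with FLAG, a level in the inputs 204.7 and 240.8 times that in the IPs. The second copy, 7SLRNA:CR42652 (FBgn0261504, arm 3R from 6820131 to 6820429, minus strand), changed by -7.40 and -7.09. Since the 2 copies are near-identical, the division of read pairs between them is uncertain.

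The RNA of RNase P was lower in both IPs as well. RNaseP:RNA (FBgn0046696, arm 3R from 31217364 to 31217662, minus strand, in an intron of ATPsynC) had 65.0, 57.5 and 68.5 CPM in the Caper IP against 1438, 1508 and 1529 CPM in its inputs. In the FLAG IP it had 42.3, 47.3 and 39.8 CPM against 1372, 1195 and 1341 CPM in its inputs. The log2 fold changes were -4.55 (SE 0.11, adjusted p = 9.21e-06) and -4.92 (SE 0.13, adjusted p = 2.89e-06). The host, ATPsynC, which encodes subunit c of ATP synthase, changed by -0.48 with Caper and -1.04 with FLAG.

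**Figure D3:**
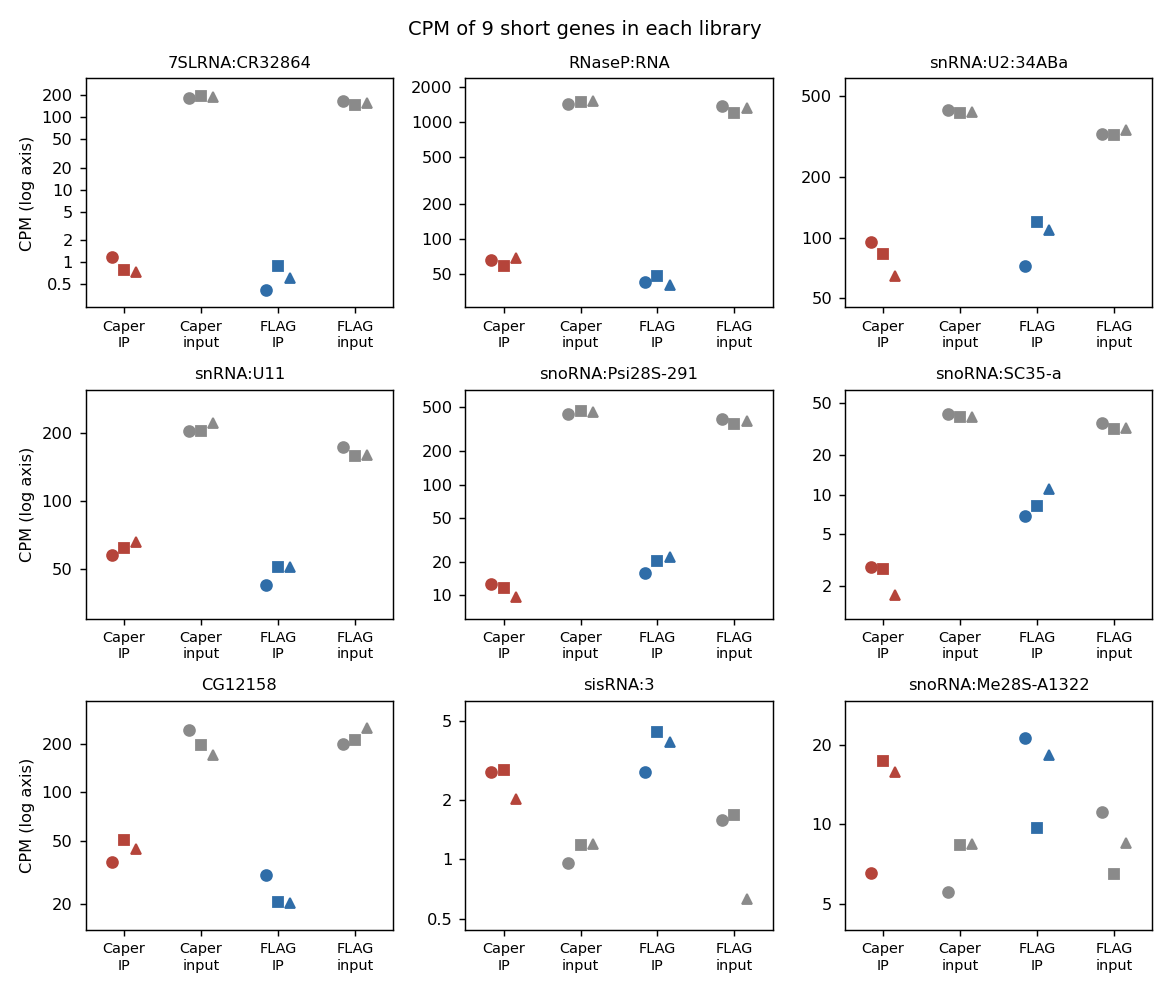
CPM of 9 short genes in each library on a log axis with its own range in each panel, circles, squares and triangles being the 3 replicates of a group. In the panels from 7SLRNA:CR32864 to CG12158 every IP lies below every input of its antibody, whereas the IPs of sisRNA:3 lie above the inputs and those of snoRNA:Me28S-A1322 lie above the input of their own pair but overlap with the inputs of other pairs.

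Spliceosomal snRNAs were depleted from both IPs across the major and minor classes. Of the 18 snRNA genes tested with Caper 14 were lower, and of the 17 tested with FLAG 15 were lower, with medians of -2.40 and -2.08. None was higher. The most abundant, snRNA:U2:34ABa (FBgn0004191, arm 2L from 13211925 to 13212116), had 94.7, 82.9 and 64.4 CPM in the Caper IP against 428.5, 414.8 and 419.4 CPM in its inputs, and 72.2, 119.1 and 108.5 CPM in the FLAG IP against 324.4, 319.9 and 339.4 CPM in its inputs. Its log2 fold change was -2.38 (SE 0.15, adjusted p = 0.000587) with Caper and -1.71 (SE 0.18, adjusted p = 0.000547) with FLAG. All 5 U1 genes were lower in both IPs, and snRNA:U1:95Cc, the most abundant of them, changed by -2.54 and -2.48. With Caper the calls of the scarce genes snRNA:U1:21D, snRNA:U1:82Eb, snRNA:U1:95Cb, snRNA:U2:14B, snRNA:U2:34ABb and snRNA:U2:38ABa were lost without input 2 (adjusted p of 0.0588 to 0.204). Both tested U4 genes were lower in both IPs too. snRNA:U4:39B changed by -3.36 and -3.11, and snRNA:U4:38AB, with at most 14 read pairs in an IP library, by -4.88 and -4.02.

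The minor spliceosome RNAs spanned a wide range. snRNA:U11 had 57.8, 62.0 and 65.5 CPM in the Caper IP against 204.7, 203.6 and 220.9 CPM in its inputs, and 42.6, 51.0 and 50.8 CPM in the FLAG IP against 172.8, 157.7 and 159.6 CPM in its inputs. It changed by -1.76 with both antibodies (adjusted p = 0.000209 and 8.33e-05, edgeR). snRNA:U4atac changed by -3.21 and -3.59. snRNA:U12 was among the least depleted of the snRNAs called lower, with 39.4, 37.5 and 30.6 CPM in the Caper IP against 66.7, 64.5 and 72.0 CPM in its inputs, a change of -0.92 (SE 0.12, adjusted p = 0.0089, and 0.0644 without input 2). In the FLAG IP it had 14.9, 25.03 and 17.9 CPM against 54.2, 53.6 and 54.2 CPM in its inputs, a change of -1.48 (SE 0.18, adjusted p = 0.00101).

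The snRNA genes that were not called had few counts. snRNA:LU had 1.26, 0.621 and 0.362 CPM in the Caper IP against 1.24, 0.792 and 0.172 CPM in its inputs, with changes of 0.06 (SE 0.75, adjusted p = 0.973) and -0.51 (SE 0.70, adjusted p = 0.587), so no difference was detectable at this depth. Its Caper value turned to -0.41 without input 3. For snRNA:U5:23D (-2.43), snRNA:U5:63BC (-2.05) and snRNA:U2:34ABc (-2.34) the Caper adjusted p was 0.102, 0.118 and 0.0631, against 0.0387, 0.0335 and 0.0238 when the replicate number was a block in the fit, which joins each IP with its own input. snRNA:U5:63BC was lower with FLAG (-1.41, adjusted p = 0.0445), but this call was lost in 9 of 13 alternative settings. These were DESeq2, all 12 libraries in 1 fit, library size only, no filter, the blocked fits without pair 5 or 6, and the removal of any of the 3 FLAG inputs (adjusted p up to 0.144). For snRNA:U2:34ABb (-1.48 with FLAG) the adjusted p was 0.059, and 0.000224 with the block. The 3 U6 genes, U6atac and U7 did not pass the filter with either antibody.

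Among the H/ACA guide snoRNAs, 48 of 77 were lower in the Caper IP and 51 of 68 in the FLAG IP, 1 was higher with FLAG, and the medians were -1.38 and -1.40. Guides named for 28S rRNA and for 18S rRNA were both among them. Lower calls were made for 35 of 53 guides of 28S rRNA with Caper (median -1.61) and 36 of 45 with FLAG (-1.53), and for 13 of 24 guides of 18S rRNA with Caper (-1.12) and 15 of 23 with FLAG (-1.07). Whether the 2 groups of guides differ was not tested. snoRNA:Psi28S-291 (FBgn0065064, arm 3R from 11223571 to 11223790, plus strand, in an intron of the ribosomal protein gene RpL3) was the most abundant and the most depleted of them. It had 12.7, 11.6 and 9.74 CPM in the Caper IP against 435.7, 457.1 and 453.6 CPM in its inputs, a change of -5.30 (SE 0.13, adjusted p = 9.21e-06). In the FLAG IP it had 16.1, 20.6 and 22.0 CPM against 394.8, 348.7 and 378.6 CPM in its inputs, a change of -4.26 (SE 0.14, adjusted p = 1.12e-05).

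The second most abundant H/ACA guide was also lower with both antibodies. snoRNA:Psi18S-1820 (FBgn0026169, arm 2R from 24176228 to 24176367) lies in an intron of Nop60B, the gene of the pseudouridine synthase that H/ACA snoRNAs bind. It had 95.2, 102.2 and 70.7 CPM in the Caper IP against 271, 220.5 and 239.9 CPM in its inputs, and 64.6, 73.1 and 85.3 CPM in the FLAG IP against 222.6, 196.5 and 231 CPM in its inputs. The snoRNA changed by -1.45 (SE 0.16, adjusted p = 0.00561) and -1.54 (SE 0.12, adjusted p = 0.00023), whereas its host rose by 0.58 (adjusted p = 0.0174) and 0.86 (adjusted p = 0.00182) in the same IPs. The H/ACA guide called higher, snoRNA:Psi28S-2442b in an intron of kra, had 2.57, 4.73 and 2.37 CPM in the FLAG IP against 1.38, 1.43 and 0.946 CPM in its inputs, a change of 1.35 (SE 0.37, adjusted p = 0.0222). Its Caper value was -0.03 (adjusted p = 0.965). The test of the difference between the IPs gave 1.39 (edgeR, adjusted p = 0.193, and 0.0412 with the block), so the main fit did not show a difference.

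Other snoRNAs and the scaRNAs were depleted more than the H/ACA guides by their medians, -2.40 in the Caper IP with 22 of 32 lower and -2.09 in the FLAG IP with 22 of 27 lower. Lower calls were made for 4 of 5 scaRNAs with Caper (median -3.26) and 3 of 3 with FLAG (-2.65). scaRNA:PsiU2-55, in an intron of the splicing factor gene Prp8, changed by -3.99 and -2.98. A pair of neighbouring snoRNAs in introns of Usp10, a deubiquitinase gene, were among the lowest of all. snoRNA:CG32479-a had 1.54, 1.55 and 1.13 CPM in the Caper IP against 96.3, 105.4 and 102.5 CPM in its inputs, and 2.01, 2.702 and 3.67 CPM in the FLAG IP against 93.8, 70.7 and 90.4 CPM in its inputs. It changed by -6.16 (SE 0.15, adjusted p = 9.21e-06) and -4.92 (SE 0.23, adjusted p = 3.73e-05), and its neighbour snoRNA:CG32479-b by -5.68 and -5.02. The 55-base snoRNA:185 changed by -4.85 and -5.13. snoRNA:Or-aca5, an H/ACA snoRNA without a known target in an intron of the non-coding host gene Uhg4, had 19.5, 20.4 and 10.1 CPM in the Caper IP against 192.8, 198.7 and 202.3 CPM in its inputs, and changed by -3.57 (SE 0.27, adjusted p = 0.0015) with Caper and by -2.79 (SE 0.18, adjusted p = 0.000138) with FLAG.

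The C/D guide snoRNAs were scarcely counted, and those that were gave mixed values. Of the 5 tested, 2 were lower and none was higher with either antibody, at medians of -0.65 and -0.63. snoRNA:Me18S-C1968, in an intron of Swim, was lower in both IPs (-1.35, adjusted p = 0.0411, and -1.30, adjusted p = 0.00612, edgeR), but not with Caper when IP 2, IP 3 or any of the 3 inputs was left out (adjusted p up to 0.176). snoRNA:Me28S-A1322 (FBgn0015543, arm 2R from 11893123 to 11893195), lies in an intron of the translation elongation factor gene eEF1alpha1. It had 6.54, 17.4 and 15.7 CPM in the Caper IP against 5.53, 8.31 and 8.40 CPM in its inputs, and 21.2, 9.71 and 18.4 CPM in the FLAG IP against 11.1, 6.48 and 8.51 CPM in its inputs. Each IP was above its own input, but the groups overlapped with both antibodies. Its log2 fold change of 0.83 (SE 0.39, adjusted p = 0.208) with Caper and 0.92 (SE 0.32, adjusted p = 0.0525) with FLAG did not pass, and passed with the replicate block at an adjusted p of 0.019 and 3.46e-05 (edgeR). The host eEF1alpha1 changed by -0.19 and -0.57.

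Short RNAs that were higher in an IP were few and came at low counts. sisRNA:3 (FBgn0286037, arm 3L from 22269932 to 22270220, plus strand), a stable intronic sequence RNA from an intron of the synaptic vesicle chaperone gene Csp, was higher with both antibodies. It had 2.77, 2.83 and 2.01 CPM in the Caper IP against 0.954, 1.19 and 1.20 CPM in its inputs, and 2.76, 4.43 and 3.92 CPM in the FLAG IP against 1.57, 1.68 and 0.630 CPM in its inputs. All IPs were above all inputs of their antibody. The changes were 1.18 (SE 0.29, adjusted p = 0.0431) and 1.49 (SE 0.37, adjusted p = 0.0161), while Csp itself changed by -0.41 and -0.58. The Caper call was lost in 10 of 17 alternative settings, among them the removal of any of the 6 Caper libraries (adjusted p up to 0.164, without input 2), and the FLAG call in 1 of 16, without IP 6 (adjusted p = 0.0517).

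Other non-coding RNAs were called higher with FLAG and not with Caper. sisRNA:CR46357, from an intron of the calreticulin gene Calr, had 20, 21 and 14 read pairs in the FLAG IP against 0, 2 and 3 in its inputs. These read pairs are not scaled for the greater depth of the IP libraries. Its scaled change was 2.29 (SE 0.69, adjusted p = 0.0327), and it was not tested with Caper. lncRNA:CR44120 had 1.12, 1.604 and 2.03 CPM in the FLAG IP against 0.491, 0.253 and 0.736 CPM in its inputs (1.71, SE 0.45, adjusted p = 0.021), with a Caper value of -0.08 (adjusted p = 0.927). The test of the difference between the IPs gave an adjusted p of 0.192 for the first and 0.214 for the second, so a difference was not shown. With the replicate block 3 short genes were higher with Caper, where 15.8% of all genes were, and 7 with FLAG, where 29.6% of all genes were. Those added by the block were snoRNA:Me28S-A1322 with both antibodies, lncRNA:CR46205 with Caper, and Sfp79B and the unnamed gene FBgn0086044 with FLAG. An unadjusted p below 0.05 with a value above 0 was reached by 2 of 186 short genes with Caper and 7 of 162 with FLAG. This was not counted over all genes.

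The most abundant short RNA was a long non-coding RNA by annotation. lncRNA:CR40469 (FBgn0058469, X from 122493 to 122706, plus strand) had 173.5, 286.6 and 249.8 CPM in the Caper IP against 1564, 1690 and 1979 CPM in its inputs, and 231, 129.3 and 180 CPM in the FLAG IP against 1908, 1236 and 1465 CPM in its inputs. It was lower with both antibodies (-2.88, SE 0.21, adjusted p = 0.00133, and -3.09, SE 0.26, adjusted p = 0.00026), and it spread more between libraries than RNase P RNA did. Without it the difference in the share of counts on short genes was -0.4543 percentage points. The shortest tested gene, the 31-base sncRNA:254 in an intron of the translation elongation factor gene eEF2, changed by -3.71 and -3.22. Across the class of other non-coding RNAs, however, only 7 of 20 were lower with Caper and 7 of 21 with FLAG, with medians of -0.40 and -0.38.

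Very short mRNAs were mostly below their inputs. With FLAG 11 of the 15 tested were lower (median -1.95), where 20.8% of all genes tested were. With Caper 6 of 23 were lower (median -1.97), where 7.53% of all genes tested were. With the replicate block 16 of 23 were lower, where 1599 of all 10778 genes were. Of these 16, 6 were among 8 genes present mainly in 1 pair of libraries, which are given below. CG12158 (FBgn0040775, arm 2R from 9362574 to 9362906, 279 exon bases), the most abundant, had 36.6, 50.7 and 44.5 CPM in the Caper IP against 244.7, 196.6 and 170.4 CPM in its inputs, and 30.5, 20.9 and 20.5 CPM in the FLAG IP against 200.4, 211.4 and 252.6 CPM in its inputs. It changed by -2.21 (SE 0.18, adjusted p = 0.00176) and -3.21 (SE 0.18, adjusted p = 8.33e-05). RpL39, a protein of the large ribosomal subunit, had 39.8, 79.0 and 70.5 CPM in the Caper IP against 168.3, 211.7 and 189 CPM in its inputs, and changed by -1.59 (SE 0.26, adjusted p = 0.0146) and, with FLAG, by -2.23 (SE 0.22, adjusted p = 0.000452). Its Caper call was lost without any of the 3 inputs (adjusted p up to 0.0885).

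Some of these mRNAs encode small secreted peptides of the immune response, and were picked out after their values were seen. Dso2, BomS6 and BomS5, all induced through the Toll pathway, were lower with both antibodies. Dso2 had 9.48, 35.8 and 16.4 CPM in the Caper IP against 68.9, 96.0 and 75.6 CPM in its inputs, and 21.4, 9.41 and 14.6 CPM in the FLAG IP against 110, 62.8 and 101.8 CPM in its inputs, with changes of -1.97 (SE 0.47, adjusted p = 0.04) and -2.60 (SE 0.33, adjusted p = 0.00112). Its Caper call was lost without IP 3 or any of the 3 inputs (adjusted p up to 0.164). BomS6 changed by -2.19 and -2.75 and BomS5 by -2.19 and -3.26. BomS4 (-1.93) and the antimicrobial peptide gene Mtk (-2.81) were lower with FLAG. With Caper they had values of -1.54 (adjusted p = 0.0555, and 0.00324 with the block) and -1.64 (adjusted p = 0.0842, and 0.0436 with the block, edgeR). IBIN, another short mRNA induced by infection, was called with neither antibody, at -0.86 (adjusted p = 0.206) with Caper and -1.01 (adjusted p = 0.218, and 0.0407 with the block) with FLAG, where 2 of 3 pairs were lower. The head fat body markers, from a tissue that makes such peptides, varied between libraries as given above, and their part in these values was not tested.

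A group of 8 of the 23 short mRNAs was present mainly in 1 pair of libraries. These were CG42481, CG43147, CG42852, Met75Cb, Acp95EF, Sfp96F, Mst57Db and Acp98AB, several of which are named for seminal fluid or accessory gland proteins of the male. Their counts summed to 743, 9 and 19 in the Caper IP against 1111, 303 and 70 in its inputs, and to 46, 7 and 5 in the FLAG IP against 238, 6 and 7 in its inputs. The first Caper pair and, among the FLAG libraries, the pair of replicate 4 held most of them. None of the 8 was called with Caper, and 6 were lower with the replicate block. The other 15 short mRNAs gave 6 lower calls with Caper (10 with the block) and 11 with FLAG (12 with the block). The 8 genes were picked for this unevenness after their counts were seen.

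The tRNA and 5S rRNA genes were almost absent from the counts, and the cause was not tested. tRNA:SeC-TCA-1-1, the selenocysteine tRNA, had 0.769, 0.854 and 0.483 CPM in the Caper IP against 4.20, 4.36 and 2.40 CPM in its inputs, and was lower with both antibodies (-2.36, SE 0.38, adjusted p = 0.0146, and -1.57, SE 0.45, adjusted p = 0.0285). Its calls were lost with Caper without IP 2, input 1 or input 2 (adjusted p up to 0.0885) and with FLAG without IP 4, IP 6, input 5 or input 6 (adjusted p up to 0.102). The more variable tRNA:Pro-TGG-1-5 had 0.577, 3.26 and 2.62 CPM in the Caper IP against 0.763, 1.58 and 2.14 CPM in its inputs, with values of 0.51 (adjusted p = 0.681) and 0.60 (adjusted p = 0.379). Both tested 5S genes were lower in both IPs, 5SrRNA:CR33367 with -3.14 and -1.50 and 5SrRNA-Psi:CR33363, a pseudogene copy, with -2.78 and -1.56. None of the 3 tested pseudogenes and none of the tested unnamed genes was called.

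Short RNAs inside introns were set beside the host gene that surrounds them. Intronic snoRNAs and scaRNAs are carried by the host transcript, whereas intronic snRNA, tRNA and mRNA genes have transcription of their own. With Caper 124 short genes lay in 68 tested hosts, and 114 of them had a lower log2 fold change than the host, with a median difference of -1.72. With FLAG 91 of 109 short genes in 62 hosts lay below the host, with a median difference of -1.52. For snoRNAs and scaRNAs alone, 97 of 102 lay below the host with Caper (median difference -1.72) and 77 of 89 with FLAG (-1.49). The hosts themselves had medians of 0.04 and -0.06, and 5 were lower and 6 higher with Caper, 17 lower and 15 higher with FLAG. A read pair that touches an intronic snoRNA is counted for it, so host precursor and mature snoRNA cannot be told apart in these counts. By position, 73 of 124 short genes in introns were lower with Caper and 76 of 109 with FLAG, against 22 of 43 and 24 of 35 for those apart from other genes and 7 of 19 and 11 of 18 for those opposite a gene.

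**Figure D4:**
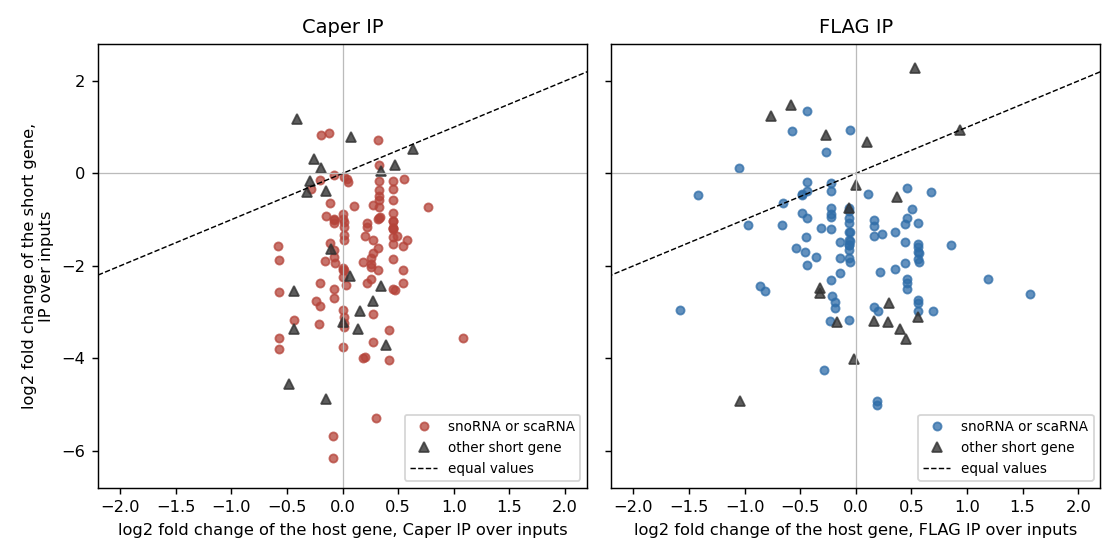
Log2 fold change of each intronic short gene against that of its host gene, for the Caper IP (left, 124 genes) and the FLAG IP (right, 109 genes), with snoRNAs and scaRNAs as circles, other short genes as triangles, and the dashed line for equal values. Most points lie below the line, 114 of 124 with Caper and 91 of 109 with FLAG, and hosts spread around 0.

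Hosts with several snoRNAs are given one by one, and differences between them were not tested. The 12 snoRNAs of RpS5a had a median of -1.19 with Caper (8 lower) and -1.43 with FLAG (9 of 11 lower), with the host at 0.45 and -0.06. The 7 in dom, a chromatin remodeller gene, had medians of -2.08 (5 lower) and -1.86 (7 lower), with the host at 0.00 and 0.56. The 6 in Hrb98DE, an hnRNP gene, had medians of -2.60 (4 lower) and -2.29 (3 of 5 lower), with the host at 0.01 and 0.46. The 7 in RpS7 had a median of -0.48 with none called lower by edgeR with Caper and of -0.81 with 3 of 6 called lower with FLAG, with the host at 0.33 and -0.22. Within RpL17, 3 of 4 snoRNAs were lower in both IPs, and the fourth, snoRNA:Psi28S-1232, had values of 0.72 (adjusted p = 0.299) and 0.94 (adjusted p = 0.0845). The 7 in kra had medians of -1.07 (3 lower) and -0.39 (2 of 5 lower), with the host at -0.08 and -0.44. With FLAG they ran from -1.98 to 1.35, with the median near the host. The 5 short genes in CG10576, sncRNA:CR43603 among them, had medians of -1.72 (4 lower) and -1.36 (4 lower), with the host at 0.27 and 0.16. The snoRNAs of a host share its transcript and are not independent of each other.

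The share of genes called lower was greatest for the shortest genes. With Caper it was 54.8, 13.8, 6.49, 3.17 and 8.51% for nuclear genes in bins of up to 300, up to 600, up to 1200, up to 2400 and over 2400 exon bases, with medians of -1.67, -0.36, -0.05, 0.12 and 0.02. With FLAG it was 68.5, 40.7, 29.9, 17.6 and 15.5%, with medians of -1.55, -0.62, -0.25, 0.02 and 0.12. Among mRNA genes alone the same bins gave 26.1, 16.8, 7.14, 3.27 and 8.65% with Caper and 73.3, 52.5, 32.5, 18.2 and 15.7% with FLAG. Within the short genes themselves the share did not follow length in 1 direction. It was 40.0, 58.3, 70.5 and 37.2% with Caper and 46.2, 72.9, 82.5 and 53.9% with FLAG for bins of up to 100, up to 150, up to 200 and up to 300 bases. Short genes with an intron were lower in 5 of 17 cases with Caper and 9 of 14 with FLAG, and those without in 97 of 169 and 102 of 148. With the replicate block the Caper counts were 10 of 17 with an intron and 114 of 169 without. Among the genes just inside the limit, at 299 bases, were both 7SL genes and lncRNA:CR44301 (0.79 and -0.75). Among those just outside it were lncRNA:CR46147 (0.93 and 2.22), lncRNA:CR44646 (0.14 and -0.04) and lncRNA:CR46098 (1.72 with FLAG).

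**Figure D5:**
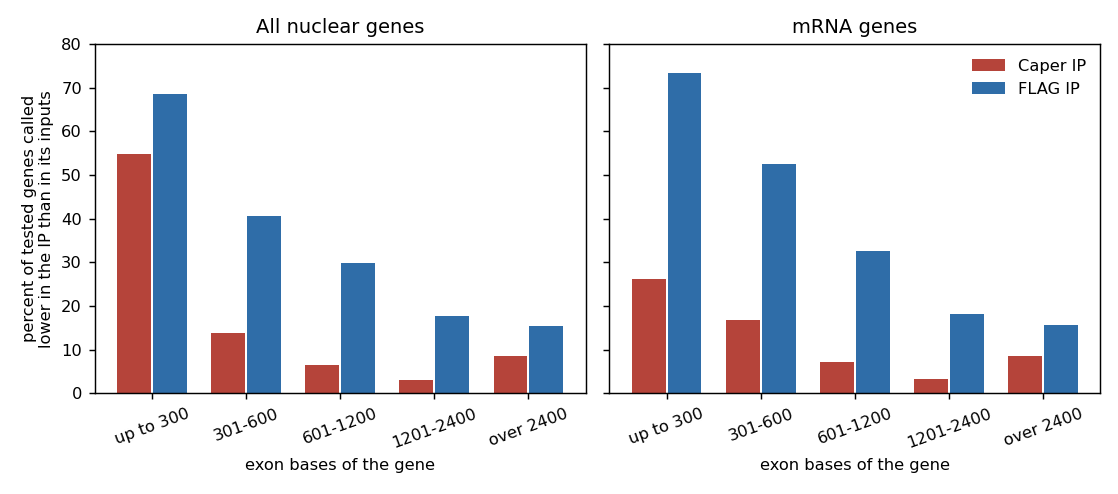
Percent of tested genes called lower in the Caper IP and the FLAG IP than in the inputs, by exon length, for all nuclear genes (left) and mRNA genes (right). The bars for genes of up to 300 bases, 54.8 and 68.5% over all nuclear genes, are the tallest of their antibody in both panels.

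The antibodies were set against each other in 1 fit of all 12 libraries, which tests whether the change from input to IP differs. Of 197 short genes tested 3 differed, each less depleted with FLAG than with Caper, and 0.963% of all 11012 genes differed. The count of 3 is near that share and is no result about the short genes as a group. The largest difference was that of snoRNA:SC35-a (FBgn0263468, arm 2L from 12432798 to 12432950), in an intron of the gene of the SR splicing factor SC35. It had 6.87, 8.27 and 10.99 CPM in the FLAG IP against 35.4, 31.7 and 32.2 CPM in its inputs, and 2.802, 2.72 and 1.73 CPM in the Caper IP against 41.6, 39.4 and 38.9 CPM in its inputs. It changed by -1.92 with FLAG and -4.03 with Caper, a difference of 2.11 (SE 0.27, adjusted p = 0.0144). Its neighbour in the same host, snoRNA:SC35-b, differed by 1.66 (adjusted p = 0.131, and 0.0404 with the block). snoRNA:Psi28S-291 differed by 1.05 (SE 0.18, adjusted p = 0.0286). snoRNA:Psi18S-996, in an intron of Tudor-SN, had 2.94, 3.63 and 3.92 CPM in the FLAG IP against 29.6, 25.7 and 27.7 CPM in its inputs, and 2.34, 2.76 and 2.05 CPM in the Caper IP against 37.3, 38.2 and 37.4 CPM in its inputs, and differed by 1.0 (SE 0.18, adjusted p = 0.0349).

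With the replicate block 14 of 197 short genes differed between the antibodies, where 12.1% of all genes did. In 10 of them the FLAG value was the higher, among them both 5S genes, snoRNA:CG32479-a (1.24 without the block, adjusted p = 0.0689, and 0.0132 with it) and scaRNA:PsiU1-6. In the other 4 it was the lower, in the short mRNAs CG12158, RpL39 and BomS5 and in snoRNA:Psi28S-1135f. DESeq2 gave 6 of the 702 short genes with a count, and an unadjusted p below 0.05 was reached by 33 of 197 (edgeR). Neither was counted over all genes, so they are no result about the short genes.

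The mRNAs of proteins that bind or process these short RNAs were called in both directions, in shares to be read against 6.33% higher and 7.53% lower over all genes with Caper, and 19.5% higher and 20.8% lower with FLAG. Of 8 genes for core proteins of snoRNA particles, Nop60B was higher with both antibodies, and Nop56 (-0.58), NHP2 (-0.65) and Nop10 (-1.66) were lower with FLAG. Of 24 genes for Sm, LSm and snRNP proteins, 3 were higher and 1 lower with Caper, and 7 higher and 4 lower with FLAG. These are 12.5 and 4.17% of the list with Caper and 29.2 and 16.7% with FLAG, near the shares over all genes, and so no result about the list. snRNP-U1-70K, a protein of the U1 particle, rose by 0.80 (adjusted p = 0.025) and 1.36 (adjusted p = 0.000327), and the U2 particle protein Sf3b1 by 0.71 and 0.47, while snRNP-U1-C fell by 0.68 and 1.10 on the log2 scale. Of 6 microRNA processing genes, Ranbp21, the exporter of microRNA precursors, was higher with both (0.55 and 0.74) and pasha with FLAG (0.69). Of 14 genes for 3′ end and tRNA maturation, Ars2 (0.92), Rrp6 (0.52) and RNaseZ (1.12) were higher and Csl4 (-0.85) and Cbp20 (-0.78) lower with FLAG. With Caper 0 were called by edgeR without the block, and 3 were higher with it. Differences between the antibodies were not tested for these lists.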

How the data were processed

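RIP-seq libraries were made from adult heads with a total RNA kit that removes rRNA with *Drosophila* probes. The authors trimmed read pairs with fastp (0.20.1), checked them with FastQC (0.11.8), mapped them with STAR (2.7.6a) to dmel_r6.36 and counted them with featureCounts of Subread (2.0.1) on exons, by strand, at a mapping quality of at least 20. They deposited raw counts per gene for 12 libraries, with no normalization. The exon length and coordinates came from the same table, and 0 columns of per-sample values were left unused. Only uniquely mapped pairs were counted.

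Symbols came from RefSeq genes at the same position (1019 of 1056 short genes, 3 more through 1 shared end, 34 without a symbol). Classes came from the RefSeq biotype and symbol. Each antibody was fitted on its 3 IPs and 3 inputs over all genes with edgeR (4.0.16, R 4.3.3, limma 3.58.1), TMM normalization, filterByExpr (minimum count 10, minimum total 15), glmQLFit and glmQLFTest, with Benjamini-Hochberg adjustment over all genes tested and a threshold of 0.05. The difference between antibodies was fitted on 12 libraries. The standard error is the log2 fold change divided by the square root of F, and CPM uses the TMM-scaled library size. The scripts were tested on simulated data. Shares of counts were tested by exact permutation.

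The numbers in the titles pair each IP with an input. Deviations from the group means correlated within pairs at 0.772, 0.156, 0.643, 0.604, 0.648 and 0.528 over 11012 genes. Caper IP 2 correlated more with Caper input 3 (0.567) than with its own input 2 (0.156). Every other IP correlated most with the input of its own number. The pairing is thus borne out except for Caper replicate 2, on which the blocked Caper fits also rest. The methods name no replicate term, so the fit without a block was the main one, and the biological coefficient of variation was 0.106 with a block and 0.247 without for Caper, 0.0731 and 0.176 for FLAG. The RIP-seq labels do not say that replicates came from separate flies, so p-values measure only the spread between these samples.

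The short genes and lists were chosen with earlier results of these data known. Genes named by rule were the 2 most abundant tested genes of each class, the 4 most changed per IP and direction, all tested snRNAs, genes higher in both IPs or different between them, the 3 most abundant with an intron, snoRNA:Me28S-A1322 and the neighbours of the length limit. Other genes were named after their values were seen. Alternatives were DESeq2 (1.42.0), other scalings, filters, length limits of 200 and 400 bases, all libraries in 1 fit, the replicate block and each library left out. Sequence features of these genes were not analysed here.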

Additional observations from a re-analysis of the deposited data

Results flagged for a closer look

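3 of 197 tested short RNAs changed differently between input and IP with the 2 antibodies, by the test of the difference on all 12 libraries (edgeR, 4 groups of 3). Over all 11012 genes 0.963% did, so the count is near that share and is no result about the short genes as a group. The log2 fold change in the FLAG IP minus that in the Caper IP was 2.11 for snoRNA:SC35-a (adjusted p = 0.0144), 1.05 for snoRNA:Psi28S-291 (adjusted p = 0.0286) and 1.0 for snoRNA:Psi18S-996 (adjusted p = 0.0349). Each was lower in both IPs than in the inputs, and less so with FLAG. The call was lost in 2 of 25 alternative settings for snoRNA:SC35-a, without FLAG input 4 (2.15, adjusted p = 0.0666) and without FLAG input 6 (2.09, adjusted p = 0.0679). It was lost in 10 of 25 for snoRNA:Psi28S-291, each the removal of 1 library (all but Caper IP 1 and FLAG IP 4, adjusted p up to 0.114), and in 15 of 25 for snoRNA:Psi18S-996, the removal of the same 10 libraries among them (adjusted p up to 0.131). Groups of 3 libraries were not tested for single outlying samples.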

How the results depend on the processing

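All lower counts with FLAG stayed within 1.5 times the main 111, between 88 and 152, and those with Caper did so except without single libraries (45 to 112, main 102). With the replicate block the Caper IP had 124 lower and 3 higher short genes. Over all 10778 genes tested with Caper, 1599 were lower and 1708 higher with the block. The FLAG IP had 122 lower and 7 higher short genes with the block. Over all 10476 genes tested with FLAG, 3094 were lower and 3104 higher. The single gene higher with Caper became 0 without a filter and at a length limit of 200 bases, 2, 0 and 0 in blocked fits without pair 1, 2 or 3, and 0 to 1 without single libraries. The 4 genes higher with FLAG became 1 with at least 10 counts in every library, 2 and 9 at limits of 200 and 400 bases, 8, 7 and 8 in blocked fits without pair 4, 5 or 6, and 1 to 4 without single libraries. The 3 differences between antibodies became 6 with at least 10 counts in every library, 6 with DESeq2, 14 with the block, 22, 10, 10 and 5 in blocked fits without pair 1, 2, 4 or 5, and 0 to 8 without single libraries. The share of counts on short genes, IP minus input, was -0.6537 percentage points without mitochondrial and rDNA counts, -0.4543 without lncRNA:CR40469, and -0.612 to -0.577 without single pairs. snRNA:LU, not called, turned from 0.06 with Caper to -0.15 in the blocked fit without pair 3 and ran from -0.41 to 0.66 without single libraries. Library size alone moved the median of all genes to 0.18 (Caper) and 0.09 (FLAG), with the short genes at -1.52 and -1.45. The causes were not tested. Most C/D snoRNA, tRNA and 5S rRNA genes had too few counts to test, and the parts of depth and of reads that map to several places in this were not tested.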
